A study of Arabidopsis thaliana with 4 samples.

Results

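DNA methylation in leaves of the Arabidopsis thaliana quadruple mutant ccr4a ccr4b ddm1 rdr2 was compared with that of wild type (WT) by enzymatic methyl-seq, in which unmethylated cytosines are converted and methylated ones are still read as C. The 2 libraries were chosen by their genotype labels out of the 4 libraries of the study, and have the mildest dependence of depth on GC content among them: bins of 200 bp with a GC content of at least 50% were covered 11.8 times as deeply as those with 30% to 35% in the quadruple mutant and 20.3 times in WT. The plants were 6 weeks old and of the accession Columbia (Col-0). All groups were grown alike in long days, and they differed by genotype: ccr4a ccr4b ddm1 rdr2, ddm1 rdr2, ccr4a ccr4b and WT. The labels give no allele numbers, and no gene of the mutants was checked here. Each genotype had 1 library, so no value below has a replicate check, and an effect of genotype and a difference between the plants sampled cannot be told apart. Each leaf library pools the DNA of all leaf cell types, so that a level between 0 and 100% and a mixture of cells cannot be told apart either.

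Plants methylate cytosines in 3 contexts, CG, CHG and CHH, where H is A, C or T. MET1 maintains CG methylation after replication, CMT3 maintains CHG methylation together with histone H3K9 methylation, and CHH methylation is renewed by CMT2 in heterochromatin and by DRM2, which is guided by small RNAs. DDM1 is a chromatin remodeller that gives methyltransferases access to compact chromatin, RDR2 makes the double-stranded RNA from which the small RNAs for DRM2 are cut, and CCR4A and CCR4B are subunits of the complex that shortens poly(A) tails. Genes with body methylation carry it in CG alone, whereas transposons and centromeric repeats are usually methylated in all 3 contexts.

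Of the 47652272 cytosines listed for chromosomes 1 to 5, 27811195 (58.4%) had at least 4 calls in both libraries and were used. The share was 60.5% in the arms, 67.8% in the pericentromere (within 2 Mb of the centromeric repeats), 56.9% in other windows within the span of the repeats, and 23.7% in satellite arrays, which are 10 kb windows dominated by the 178 bp centromeric repeat. The median over nuclear cytosines with calls was 16 calls in the quadruple mutant and 14 in WT. In satellite arrays, the mean over all listed cytosines was 3.61 calls in the quadruple mutant and 2.57 in WT. The pericentromere had 22.5 in the quadruple mutant and 28.8 in WT. The ccr4a ccr4b library, set beside these below, had at least 4 calls at 42.8% of listed cytosines and a mean of 0.706 calls in satellite arrays. Its ratio of depth by GC content, taken as above, was 52.9. In the chloroplast, which is not methylated and measures incomplete conversion, 0.0737% to 0.0986% of calls read as methylated in the quadruple mutant and 0.0782% to 0.0918% in WT, over the 3 contexts. Intervals below are 95% intervals of the calls. They cover counting error only, since PCR copies of one molecule are not told apart from separate molecules without molecular identifiers.

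The kinds of sequence that gained methylation over WT are shown by 4 bins of 100 bp, on the + strand and the build of the deposited files. The first 3 are the bins of largest difference in the leading region of each context, and the last is the gained satellite bin with the most calls. Letters were read from the deposited trinucleotides, n marks an A or T that they do not give, and capitals mark the cytosines of the context on either strand, so that a capital G is a cytosine of the - strand.
CG bin: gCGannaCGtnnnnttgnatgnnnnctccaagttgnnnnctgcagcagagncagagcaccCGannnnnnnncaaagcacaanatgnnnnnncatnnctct
CHG bin: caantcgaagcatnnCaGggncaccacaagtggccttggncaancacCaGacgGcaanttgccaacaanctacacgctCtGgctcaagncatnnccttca
CHH bin: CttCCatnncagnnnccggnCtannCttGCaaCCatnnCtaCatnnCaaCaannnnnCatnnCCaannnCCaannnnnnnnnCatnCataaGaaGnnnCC
Satellite CHH bin: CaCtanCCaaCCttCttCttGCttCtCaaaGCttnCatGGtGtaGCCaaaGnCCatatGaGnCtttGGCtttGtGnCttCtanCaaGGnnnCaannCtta
The CG bin, chr5:23314501-23314600 in the arm, had 68.4% of 95 CG calls methylated in ccr4a ccr4b ddm1 rdr2 (58.5% to 76.9%) and none of 86 in WT, which allows a share of up to 3.49%. Its 3 CG pairs, written gCGa, aCGt and cCGa, are the only letters in capitals. The CHG bin, chr4:16561601-16561700 in the arm, had 89.0% of 454 CHG calls methylated in the quadruple mutant and 6.45% of 589 in WT. The CHH bin, chr5:10947001-10947100 in the pericentromere, had 42.3% of 149 CHH calls methylated in the quadruple mutant and 1.79% of 56 in WT. Its levels rest on 10 of the 24 cytosines in capitals, whereas the other printed bins used all of theirs. Its depth was 12.1 calls per cytosine in the quadruple mutant and 3.67 in WT. It is thus among the bins left out below where depth differed over 3 times. The satellite bin, chr3:14103201-14103300, had 17.4% of 1158 CHH calls methylated in the quadruple mutant and 6.13% of 718 in WT.

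Over the nucleus, methylation was lower in the quadruple mutant than in WT in every context. In points the deficit was largest in CG, which also kept the largest share of its WT level. CG methylation was 11.8% in the quadruple mutant and 36.6% in WT, a difference of -24.8 points with 32.3% of the WT level kept. CHG methylation was 2.54% in the quadruple mutant and 14.8% in WT, with 17.2% kept. CHH methylation was 0.972% in the quadruple mutant and 4.99% in WT, with 19.5% kept. These 3 differences were negative on all 5 chromosomes. Calls pooled in this way weight highly covered repeats: with cytosines weighted equally, 40.8% of CG, 25.8% of CHG and 32.5% of CHH were kept, and the mutant was apart from WT by -17.9, -7.16 and -2.38 points. Without cytosines covered over 3 times the median they were -15.2, -6.56 and -2.45 points.

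The regions differed in what was kept. In the arms, CG methylation was 12.3% in the quadruple mutant and 22.9% in WT (difference -10.5 points, -10.5 to -10.5), and 53.9% of the WT level was kept. The kept share ranged over the chromosomes from 41.7% on chromosome 4 to 64.2% on chromosome 5. In the pericentromere, CG was 10.7% in the quadruple mutant and 72.1% in WT (difference -61.4 points, -61.4 to -61.4), which left 14.9%, with 12.6% to 16.9% over the chromosomes. Non-satellite windows within the repeat span kept 6.00% of their CG level, with 4.81% in the quadruple mutant and 80.2% in WT. Satellite arrays kept the least, 2.80%, with 2.04% in the quadruple mutant and 72.9% in WT, and 2.36% to 3.26% over the chromosomes. The 4 regions had CG levels between 2.04% and 12.3% in ccr4a ccr4b ddm1 rdr2 and between 22.9% and 80.2% in WT, and in these pooled calls the arms were the highest region in the mutant and the lowest in WT. With cytosines weighted equally, CG in the mutant was 12.6% in the arms and 13.1% in the pericentromere. The kept CG share was then 66.5% in the arms and 18.2% in the pericentromere. Without cytosines covered over 3 times the median it was 70.6% in the arms and 22.0% in the pericentromere.

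**Figure D1:**
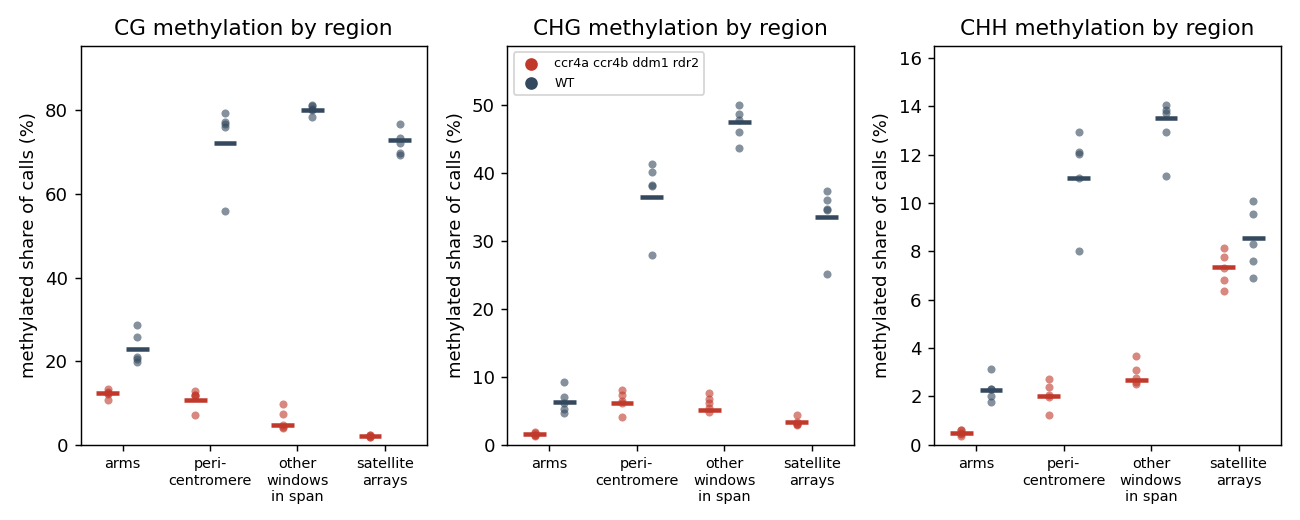
Methylated share of calls (%) in CG, CHG and CHH by region, with ccr4a ccr4b ddm1 rdr2 in red on the left and WT in dark blue on the right of each pair. Points are the 5 chromosomes and bars the pooled level, and satellite CHH, at 7.36% in the quadruple mutant and 8.56% in WT, is the pair whose points overlap.

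CHG methylation was lower in ccr4a ccr4b ddm1 rdr2 in each of these regions. It was 1.54% in the quadruple mutant and 6.27% in WT in the arms, 6.19% and 36.6% in the pericentromere, 5.08% and 47.6% in non-satellite windows of the span, and 3.28% and 33.6% in satellite arrays. The kept share was thus 24.5% in the arms, 16.9% in the pericentromere, 10.7% in the other windows and 9.78% in the arrays. CHH methylation was 0.481% in the quadruple mutant and 2.25% in WT in the arms, 2.0% and 11.0% in the pericentromere and 2.67% and 13.5% in non-satellite windows of the span, which kept 21.4%, 18.1% and 19.7%. The arm values moved with the weighting, with a limit on coverage and with the width of the pericentromere. With cytosines weighted equally, the arms differed by -6.32 points for CG, -2.22 for CHG and -0.981 for CHH, and the kept CHG share was 39.8%. Without cytosines over 3 times the median they were -5.74, -2.17 and -1.05 points, and the windows of the span then kept 31.7% of CHH. With the pericentromere cut at 1 Mb they were -16.4, -8.06 and -2.86 points, and with it cut at 3 Mb the CHG difference was -3.04 points.

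In pooled calls, the kept share of CG was lowest within 0.5 Mb of the repeats and highest in the far arms, with no steady order between. Pooled calls weight highly covered repeats, and the steps were not rerun with equal weighting or a limit on coverage. The lowest step, between 0.25 and 0.5 Mb, kept 10.2%. Within 0.25 Mb of the span, CG methylation was 7.83% in the quadruple mutant and 66.3% in WT, and 11.8% was kept. Between 1.75 and 2 Mb it was 15.6% in the quadruple mutant and 68.7% in WT, with 22.7% kept, and between 2.75 and 3 Mb 16.0% and 34.6%, with 46.2% kept. The kept share was 47.5% between 3.25 and 3.5 Mb and 25.5% between 3.75 and 4 Mb. Beyond 4 Mb, CG methylation was 11.9% in the quadruple mutant and 17.4% in WT, with 68.3% kept. In the same steps within 4 Mb, the kept share lay between 13.3% and 24.1% in CHG and between 14.4% and 20.4% in CHH, and beyond 4 Mb it was 33.2% and 27.7%. The CG level lay between 6.47% and 17.4% in the quadruple mutant and between 17.4% and 79.3% in WT over all steps.

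**Figure D2:**
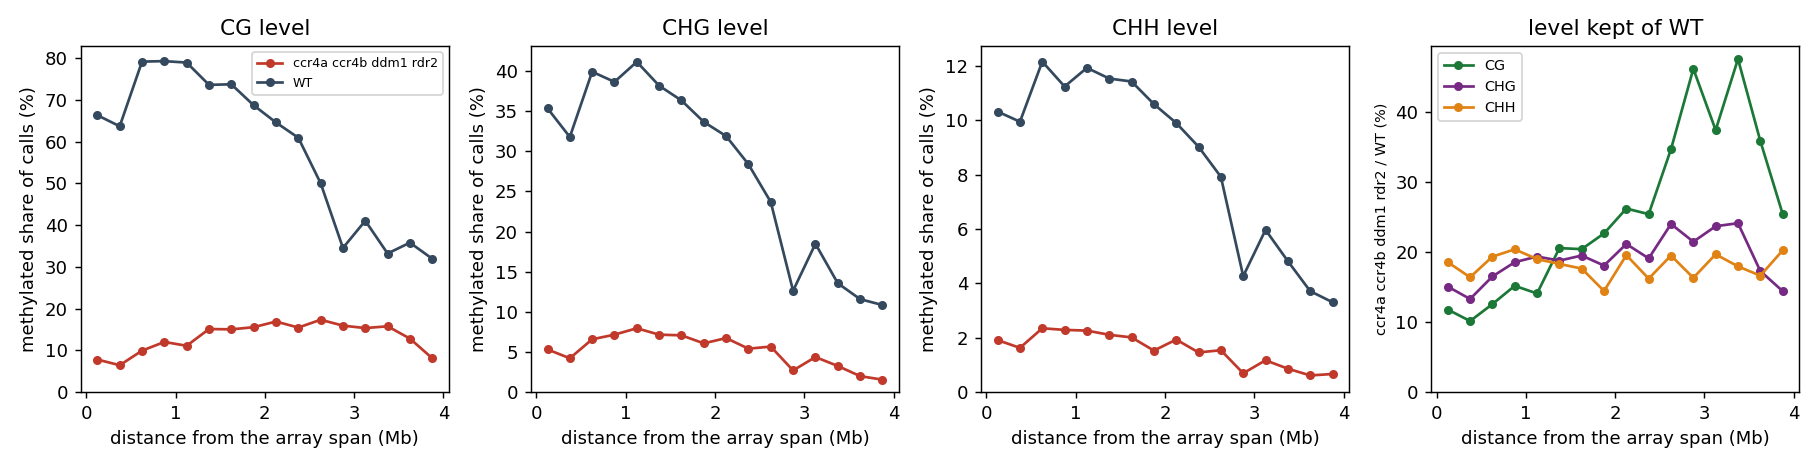
Methylation level (%) of ccr4a ccr4b ddm1 rdr2 (red) and WT (dark blue) against distance from the repeat span (Mb, steps of 0.25 Mb, both sides and 5 chromosomes pooled), and at the right the level kept of WT (%) per context. The kept CG share lies at 11.8% next to the span, 47.5% between 3.25 and 3.5 Mb and 25.5% between 3.75 and 4 Mb, while CHG and CHH lie between 13.3% and 24.1% within 4 Mb.

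Single cytosines with at least 10 calls in both libraries showed that pericentromeric CG methylation was replaced by none or by low levels. Of 603005 such CG cytosines, 1.96% were methylated at 80% or more in the quadruple mutant and 57.4% in WT. Cytosines with no methylated call made up 40.8% in the quadruple mutant and 7.84% in WT, and those above 0 but under 20% made up 37.4% in the quadruple mutant and 1.76% in WT. In the arms, 8.01% of CG cytosines were methylated at 80% or more in the quadruple mutant and 15.9% in WT, and cytosines at 0 made up 74.7% and 72.3%. In satellite arrays none of 27562 CG cytosines reached 80% in ccr4a ccr4b ddm1 rdr2, whereas 52.1% did in WT.

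Satellite arrays kept their CHH methylation while CG and CHG were nearly gone. CHH methylation was 7.36% in ccr4a ccr4b ddm1 rdr2 (7.35% to 7.38%) and 8.56% in WT (8.54% to 8.58%), which left 86.0% of the WT level, against 18.1% in the pericentromere. The sign of the difference was not the same on all chromosomes. On chromosome 2 CHH was 8.15% in the quadruple mutant and 6.89% in WT, higher by 1.27 points (1.21 to 1.32). On chromosome 5 it was 6.81% in the quadruple mutant and 10.1% in WT, a difference of -3.27 points (-3.32 to -3.22). Chromosomes 1, 3 and 4 lay between, at -1.26, -0.530 and -2.20 points. Under the alternatives tried the pooled difference lay between -2.15 points, at cytosines covered in all 4 libraries, and -0.540 points, in windows with a satellite share of 70%. The kept share was 76.3% and 93.3% in these, and a minimum of 10 calls gave -1.94 points. Only 23.7% of satellite cytosines were covered well enough to enter, and the copies to which reads of a repeat belong cannot be told apart.

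At single satellite cytosines, CHH was at 0 in 58.4% of cytosines in the quadruple mutant and 58.9% in WT, and between 20% and 80% in 13.5% and 16.3%. At cytosines that had 4 calls or more in each of the 4 libraries, satellite CHH was 6.91% in ccr4a ccr4b ddm1 rdr2, 9.07% in ddm1 rdr2, 6.23% in ccr4a ccr4b and 9.06% in WT. There satellite CG was 2.46% in ccr4a ccr4b ddm1 rdr2, 4.46% in ddm1 rdr2, 68.6% in ccr4a ccr4b and 74.8% in WT. The CG levels thus formed a low and a high pair of libraries by the ddm1 rdr2 genotype, and the CHH levels did not. CHH was instead lower in the libraries with the ccr4a ccr4b genotype than in the others, and the cause was not tested.

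The trinucleotide of a CHH cytosine went with how it was methylated and what was kept. CMT2 is known to prefer CAA and CTA. In satellite arrays, CAA was methylated at 17.8% in the quadruple mutant and 22.2% in WT, and CTA at 16.4% in the quadruple mutant and 17.8% in WT, so that 80.3% and 92.5% were kept. CAC and CCA were slightly higher in the mutant, with 4.57% in the quadruple mutant and 4.34% in WT for CAC and 2.43% and 2.32% for CCA. The exceptions were CCC, at 0.239% in the quadruple mutant and 1.27% in WT, and CCT, at 0.272% and 1.16%, which kept 18.8% and 23.4%. The other CHH trinucleotides of the arrays, CAT, CTC and CTT, kept 80.8% to 95.1%.

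In the pericentromere the same trinucleotides kept less than in the arrays, other than CCC, with 26.7%. CCT kept 23.0% there, close to its 23.4% in the arrays. CAA was methylated at 5.29% in the quadruple mutant and 29.0% in WT and CTA at 5.34% and 27.9%, so that 18.3% and 19.1% were kept. The kept share of all 9 CHH trinucleotides there lay between 15.7%, at CTC, and that of CCC. In CHG, the trinucleotide CCG kept less than CAG and CTG in both regions. In satellite arrays CCG was methylated at 0.818% in the quadruple mutant and 26.6% in WT, with 3.07% kept. CAG was methylated there at 7.60% in the quadruple mutant and 43.5% in WT, with 17.5% kept, and CTG kept 17.3%. In the pericentromere, CCG kept 10.2%, CAG 18.4% and CTG 18.2%.

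The genome was next read in bins of 100 bp with at least 4 cytosines of a context, by Fisher's exact test of the summed calls with Benjamini-Hochberg adjustment. Calls required an adjusted p below 0.01 together with a gap of 40 points or more for CG, 20 for CHG and 10 for CHH. This test compares the 2 libraries, not the genotypes, and treats calls as independent. In CG, 117811 of 464961 tested bins (25.3%) were called: 114695 (24.7%) fell and 3116 (0.670%) rose in ccr4a ccr4b ddm1 rdr2. Of 514760 CHG bins, 86384 (16.8%) were called, 85478 (16.6%) lower and 906 (0.176%) higher. Of 802218 CHH bins, 81880 (10.2%) were called, 79167 (9.87%) lower and 2713 (0.338%) higher. CG fell in 81.2% of the bins tested in the pericentromere, in 96.8% in satellite arrays and in 8.51% in the arms.

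The counts depended on the size of the bins and on coverage. With bins of 300 bp, CG counts were 565 higher and 63043 lower, CHG counts 361 and 45925, and CHH counts 908 and 30684. With at least 6 cytosines per bin, 1299 CG and 578 CHG bins were higher. Without cytosines over 3 times the median, 67888 CG and 42893 CHG bins were lower. A minimum of 10 calls gave 1135 higher CHH bins and an adjusted p under 0.0001 gave 1519. Among bins past the adjusted p, 1011 CG bins lay within 5 points above the threshold for a gain and 1178 within 5 points below it. In CHG these were 242 and 286 bins, and in CHH 1513 and 2425.

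CG bins were also called on the + strand alone, so that the - strand calls did not choose the bins. The strands of a CG pair come from the same plants and library, so their agreement was likely in advance. It cannot show whether a difference would recur in other plants. Of 445397 bins with both strands covered, 3220 (0.723%) were higher in ccr4a ccr4b ddm1 rdr2 on the + strand, with a median of 66.7% in the quadruple mutant and 0% in WT. On the - strand the same bins had a median of 63.3% in the quadruple mutant and 0% in WT. The - strand differed in the same direction in 3140 of them, and by at least 40 points in 2103 (65.3%). Of the 107811 bins (24.2%) lower on the + strand, the - strand passed 40 points in 100904 (93.6%). Between the strands of the same library, 189 bins (0.0424%) were called in the quadruple mutant and 1202 (0.270%) in WT.

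What a bin kept depended on the contexts in which it was methylated in WT. These classes use the WT levels, so only the levels in the mutant are informative. The 50832 bins with at least 50% CG and under 5% CHG in WT, the pattern known from gene bodies, had a median CG level of 65.6% in the quadruple mutant and 77.4% in WT. Of them 86.9% kept at least 50% of their WT level and 3.23% were lost, that is, had under 10% of it. The 72561 bins with at least 50% CG and at least 20% CHG in WT, the pattern known from transposons, had a median CG level of 8.88% in the quadruple mutant and 82.8% in WT. Of these 9.02% were kept and 47.7% lost, and 66411 fell in CG and 62616 in CHG. Position and class could be set apart. In the pericentromere, 74.1% of the 2623 bins with CG alone were kept, against 4.35% of the 47954 bins with CG and CHG. In the arms these shares were 87.6% and 21.0%.

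**Figure D3:**
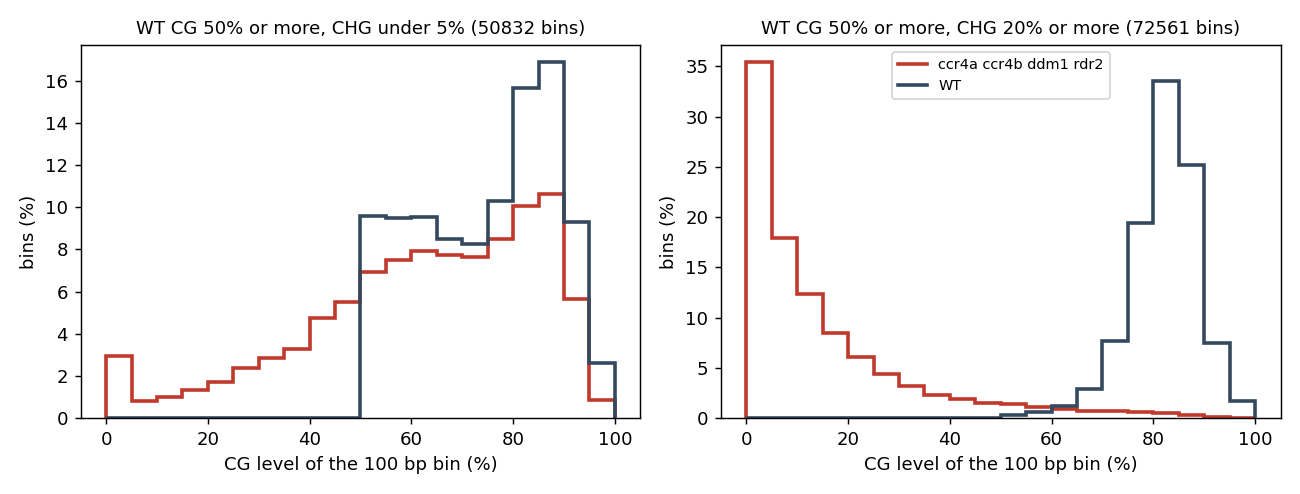
Distribution of the CG level (%) of 100 bp bins in ccr4a ccr4b ddm1 rdr2 (red) and WT (dark blue), as the percentage of bins in steps of 5%, for bins with CG methylation alone in WT at the left and with CG and CHG methylation in WT at the right. The medians are 65.6% in the quadruple mutant and 77.4% in WT at the left, and 8.88% and 82.8% at the right.

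Over all bins with at least 50% CG in WT, 34.9% were kept, 30.4% partly kept and 34.7% lost. By region, 64.2% were kept in the arms, 8.10% in the pericentromere and 7 of 10647 bins in satellite arrays. Of the bins with at least 20% CHG in WT, 13.2% were kept and 42.3% lost. Of those with at least 10% CHH in WT, 16.5% were kept and 41.5% lost over the nucleus, whereas in satellite arrays 44.3% were kept and 13.5% lost.

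Among transposon-like bins, those that kept CG and those that lost it differed in CHG. The 6542 bins that kept CG had medians of 57.3% CG and 26.9% CHG in ccr4a ccr4b ddm1 rdr2, against 85.6% and 48.8% in WT, and 56.5% of them (3699) also kept CHG. Of the 31392 bins that kept CG in part, 11.5% (3624) kept CHG, and of the 34627 bins that lost CG, 1.41% (489) did. Depth moved with this split: the bins that kept CG had a median of 18.9 calls per cytosine in the quadruple mutant and 21.9 in WT, and the bins that lost it 35.6 and 50.9. The part of depth in the split was not tested. The kept CG bins of the pericentromere were scattered. The 6044 bins there, of whatever CHG level, formed 3440 runs, of which 2262 were single bins and 195 held 5 bins or more, and the longest run held 15 bins.

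Lower CG bins formed 29448 merged regions, of which 13639 were single bins and 6268 held 5 bins or more. The 2 stretches of the arms with the most lower bins in each context, long by this choice, were low in ddm1 rdr2 as well. The stretch with the most CG bins, 170, lay at chr2:134801-152400 and had 6.01% CG in ccr4a ccr4b ddm1 rdr2, 4.13% in ddm1 rdr2, 76.6% in ccr4a ccr4b and 80.2% in WT. A second one, at chr4:1893201-1909600, had 3.35%, 4.33%, 81.3% and 82.0% in that order. The CHG stretch at chr1:19388701-19398400, with 93 bins, had 5.55% CHG in ccr4a ccr4b ddm1 rdr2, 4.70% in ddm1 rdr2, 46.8% in ccr4a ccr4b and 47.5% in WT, and the one at chr1:11525501-11535000 had 6.05%, 3.90%, 46.3% and 46.5%. In CHH, the stretch at chr5:17706301-17718700, with 116 bins, had 1.10% in ccr4a ccr4b ddm1 rdr2, 1.11% in ddm1 rdr2, 12.0% in ccr4a ccr4b and 15.9% in WT. The second CHH stretch, chr1:19388501-19398600, covers the first CHG stretch, with 0.851%, 0.828%, 13.1% and 17.1% CHH. In each of these the libraries with the ddm1 rdr2 genotype were low and the others high, and the largest adjusted p of any of their bins was 0.001 (Fisher's exact test).

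The bins that gained CG methylation were mostly isolated and mostly in the arms. Of the 3116, 2994 were in the arms, 122 in the pericentromere and none in the span of the repeats. These were 0.820% of 364954 bins tested in the arms and 0.144% of 84861 in the pericentromere. In WT, 74639 of the pericentromeric bins and 85099 of the arm bins already had at least 50% CG. The gained bins merged into 2964 regions, of which 2824 were single bins, and the longest held 4 bins, whereas the longest merged region of lower CG held 170. The median CG level of the gained bins was 63.6% in the quadruple mutant and 0% in WT. Under 5% in WT were 1902 of them (61.0%), against 54.7% of all CG bins tested. All bins tested include those whose WT level was too high to rise by the required gap. The 2 shares therefore cannot show whether unmethylated bins were gained more often. The median GC content of the gained bins, 41%, was close to the 42% of all CG bins tested. CHG and CHH had medians of 0% in both libraries at these bins. Of the 2617 that could be tested in CHG 43 (1.64%) also rose in CHG, against 0.176% of all CHG bins tested. Of the 3113 tested in CHH 13 (0.418%) also rose, close to the 0.338% of all CHH bins tested. Where all 3 contexts were covered, 1589 of 2616 gained CG bins (60.7%) had under 5% of both CG and CHG in WT, against 55.0% of all bins so covered. In the arms these shares were 60.8% of gained bins and 65.9% of all bins. The shares of all bins have the same limit. Over all regions, gains made up 1589 of the 198582 bins with under 5% of both. They made up 998 of the 39251 bins that fell in none of the WT classes, which is a larger share. Gains were thus not more frequent in bins unmethylated in WT than in these others.

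The levels of the other genotypes at the same bins did not enter the choice of bins, although the choice fixed a low WT level. The median CG level was 63.6% in ccr4a ccr4b ddm1 rdr2, 49.4% in ddm1 rdr2 (2982 bins covered), 43.0% in ccr4a ccr4b (1733 bins) and 0% in WT. At 2243 of the 2982 bins ddm1 rdr2 had at least 50% of the ccr4a ccr4b ddm1 rdr2 level, and at 1072 of the 1733 so did ccr4a ccr4b. Only 470 of the 2982 bins were under 5% in ddm1 rdr2. WT was thus the lowest of the 4 libraries at these bins by its median, which the choice of bins by low WT calls fixes in part.

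The leading CG region, chr5:23314101-23314700, contains the CG bin printed above. It had 49.3% of 535 CG calls methylated in ccr4a ccr4b ddm1 rdr2, 47.4% of 445 in ddm1 rdr2, 43.0% of 86 in ccr4a ccr4b and none of 456 in WT, which allows up to 0.658%. The region chr4:1137301-1137600 had 76.7% in ccr4a ccr4b ddm1 rdr2, 53.5% in ddm1 rdr2 and 1.59% in WT, with 4 calls in ccr4a ccr4b. These regions were methylated in each mutant library with enough calls. At chr5:22079501-22079900, CG was 51.6% in ccr4a ccr4b ddm1 rdr2, 38.7% in ddm1 rdr2, 0.134% in ccr4a ccr4b and none of 1147 calls in WT, which allows up to 0.262%. The gain at this last region was 18.6 points without cytosines over 3 times the median. At chr3:9539301-9539700, CG was 58.9% in ccr4a ccr4b ddm1 rdr2, 28.0% in ddm1 rdr2, 43.2% in ccr4a ccr4b and 10.5% in WT. The largest adjusted p of any bin in these 4 regions was 7.49e-09 (Fisher's exact test).

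**Figure D4:**
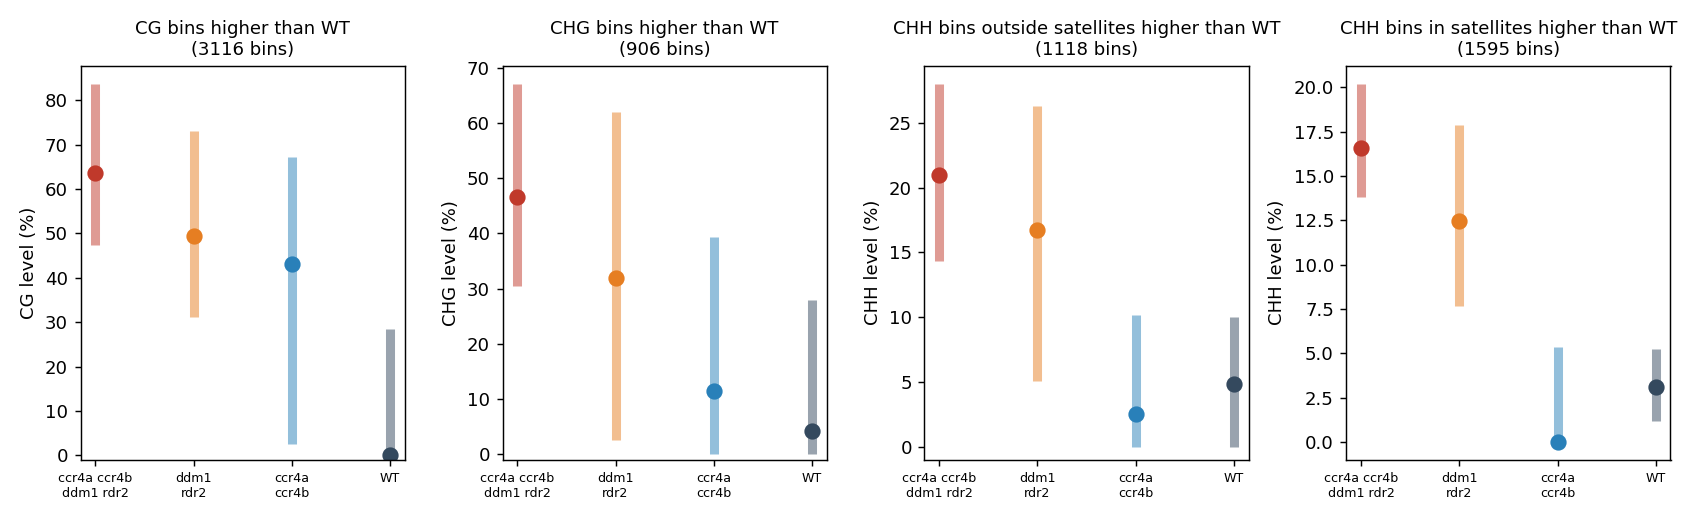
Methylation level (%) of the bins higher in the quadruple mutant than in WT, in ccr4a ccr4b ddm1 rdr2, ddm1 rdr2, ccr4a ccr4b and WT, for CG, CHG, CHH outside satellites and CHH in satellites. Points are medians over bins and bars run between the quartiles, and ddm1 rdr2 lies at 49.4%, 31.9%, 16.7% and 12.4% in the 4 panels.

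Many CHG gains lay on sequence that was already methylated in CG. Of the 906 bins, 717 were in the arms and 185 in the pericentromere. These were 0.170% of 420650 bins tested in the arms and 0.209% of 88679 in the pericentromere, near the 0.176% of all CHG bins. The 906 bins had a median CHG level of 46.7% in the quadruple mutant and 4.28% in WT. Their median CG level was 72.8% in the quadruple mutant and 76.1% in WT, and CHH was 6.54% and 0.597%. These medians cover only the bins with at least 4 covered cytosines of that context in the library concerned. Of the 588 that were covered in all 3 contexts, 180 (30.6%) had CG alone in WT, 181 (30.8%) had CG and CHG, 70 (11.9%) had neither and 157 (26.7%) fell in none of these classes. Among all bins so covered, 14.1% had CG alone, 20.1% had CG and CHG, 55.0% had neither and 10.9% fell in none. Of 903 tested in CHH, 170 (18.8%) rose there as well, against 0.338% of all CHH bins tested. At CAG and CTG outside satellites, gained CHG bins had 52.3% and 52.4% in the quadruple mutant and 18.0% and 19.0% in WT, and at CCG 39.5% and 16.8%. In ddm1 rdr2 the median CHG level of these bins was 31.9% (857 bins) and in ccr4a ccr4b 11.5% (561 bins).

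The leading CHG region, chr4:16561301-16562900, merged 14 called bins and contains the CHG bin printed above. Its CHG level was 66.9% in ccr4a ccr4b ddm1 rdr2, 59.0% in ddm1 rdr2, 18.8% in ccr4a ccr4b and 4.11% in WT, and its CG level was 76.0%, 73.6%, 52.6% and 40.1% in the same order. At chr3:10402701-10404100, CHG was 76.2% in ccr4a ccr4b ddm1 rdr2, 79.3% in ddm1 rdr2, 48.3% in ccr4a ccr4b and 47.4% in WT. The region chr1:12853001-12854400 in the pericentromere had 76.9%, 79.0%, 43.4% and 32.3% in that order. In these 3 regions both libraries with the ddm1 rdr2 genotype were high. The pericentromeric region chr2:2056201-2057100 differed: CHG was 59.3% in ccr4a ccr4b ddm1 rdr2, 4.33% in ddm1 rdr2, 0% of 658 calls in ccr4a ccr4b (up to 0.456%) and 0.0646% in WT. CG was alike there in all 4 libraries, at 82.4% in ccr4a ccr4b ddm1 rdr2, 80.4% in ddm1 rdr2, 88.0% in ccr4a ccr4b and 82.5% in WT, and CHH was 8.57% in the quadruple mutant and at most 0.184% in the others. The largest adjusted p of any bin in the 4 regions was 0.000577 (Fisher's exact test).

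CHH gains lay mostly in satellite arrays. Of the 2713 bins, 1595 were in satellite arrays, 661 in the arms, 385 in the pericentromere and 72 in the other windows of the span. The gained bins were 0.107% of 618791 bins tested in the arms, 0.283% of 136027 in the pericentromere and 1.003% of 7177 in those windows. In the arrays, 3.97% of 40223 CHH bins tested were higher and 7.21% (2902) were lower in ccr4a ccr4b ddm1 rdr2. On chromosome 2, 504 array bins were higher and 247 lower, and on each other chromosome more bins were lower than higher, with 287 higher and 1177 lower on chromosome 5. The gained array bins had a median CHH level of 16.6% in ccr4a ccr4b ddm1 rdr2, 12.4% in ddm1 rdr2 (1433 bins), 0% in ccr4a ccr4b (584 bins) and 3.09% in WT. Their median depth was 7.55 calls per cytosine in ccr4a ccr4b ddm1 rdr2, 4.74 in ddm1 rdr2, 0.162 in ccr4a ccr4b and 5.16 in WT. The ccr4a ccr4b median thus rests on the 584 bins with enough calls in that library. In the gained array bins CAA was methylated at 37.6% in the quadruple mutant and 10.8% in WT, and CTA at 36.0% and 8.63%. CCC had 0.750% and 0.697%.

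Outside the arrays, the 1118 gained CHH bins had a median CHH level of 21.0% in ccr4a ccr4b ddm1 rdr2, 16.7% in ddm1 rdr2 (1023 bins), 2.57% in ccr4a ccr4b (719 bins) and 4.81% in WT. The median CG level of these bins was 41.0% in the quadruple mutant and 77.1% in WT, and their median CHG level was 53.3% and 37.2%. These medians cover only the bins with at least 4 covered cytosines of that context in the library concerned. Over all gained CHH bins, satellite arrays included, 231 of the 527 tested in CG (43.8%) fell there. CG fell in 24.7% of all bins tested, in 81.2% in the pericentromere and in 96.8% in satellite arrays. The 43.8% therefore cannot show whether CG fell more often beside CHH gains. Of the 531 tested in CHG, 170 (32.0%) rose in CHG, against 0.176% of all CHG bins tested. Some gained CHH bins thus had lower CG and some had higher CHG, and bins with both were not counted. Covered in all 3 contexts were 230 of the 2713, 8 of them in the arrays, and 138 (60.0%) had CG and CHG in WT, against 20.1% of all bins so covered.

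The leading CHH region was chr5:10944601-10947100 in the pericentromere, with 25 called bins, and it contains the CHH bin printed above. CHH was 25.5% in ccr4a ccr4b ddm1 rdr2, 27.5% in ddm1 rdr2, 3.50% in ccr4a ccr4b and 4.88% in WT, and CG was 67.7%, 65.5%, 88.6% and 86.6% in the same order. The arm regions chr3:4291801-4294300 and chr3:4284601-4286900 lie close together and had 26.3% and 30.8% CHH in the quadruple mutant, 31.5% and 35.6% in ddm1 rdr2, 3.82% and 3.27% in ccr4a ccr4b, and 8.08% and 9.39% in WT. The fourth region, chr3:10402701-10404000, is the second CHG region over again, with 25.7% CHH in ccr4a ccr4b ddm1 rdr2, 29.7% in ddm1 rdr2, 2.77% in ccr4a ccr4b and 4.85% in WT. In all 4 regions CHH was at least as high in ddm1 rdr2 as in ccr4a ccr4b ddm1 rdr2, and WT and ccr4a ccr4b were low. The largest adjusted p of any bin in them was 0.00183 (Fisher's exact test).

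Depth moved with the gains. The median ratio of calls per cytosine, ccr4a ccr4b ddm1 rdr2 over WT, was 1.31 at gained CG bins and 1.10 at all CG bins tested, 1.32 and 1.13 in CHG, and 1.41 and 1.19 in CHH. Bins in which the ratio was above 3 made up 2.02% of gained CG bins, 4.30% of gained CHG bins and 8.11% of gained CHH bins, against 1.39%, 1.74% and 5.02% of all bins tested. Without bins whose depth differed over 3 times between the libraries, 3053 CG, 865 CHG and 2474 CHH bins were higher.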

How the data were processed

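Enzymatic methyl-seq libraries of leaf DNA were analysed from the files that the authors deposited. The deposited values are counts, made by the authors by calling each cytosine on each strand: methylated calls and unmethylated calls, beside the context and the trinucleotide. Bismark 0.22.3 is named per the submitters' processing notes. That reads were trimmed and aligned in pairs to a build called ColCEN is known from the names of the deposited files, and the treatment of PCR duplicates and of reads that map to several places is not given in the sources used here. No cytosine had 1 or 2 calls in any library, so a minimum of 1 call is in effect one of 3. Nuclear calls summed to 785451909 in ccr4a ccr4b ddm1 rdr2 and 774313581 in WT.

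The comparison, its regions and its lists were chosen with earlier results of these data known. Levels are methylated shares of all calls at cytosines with at least 4 calls in both libraries, with Wilson 95% intervals. Differences carry Newcombe 95% intervals. The limit for 0 methylated calls is 3 calls of the total. Levels of single bins or regions in ddm1 rdr2 and ccr4a ccr4b, and all levels of named regions, use cytosines with at least 4 calls in that library, and a bin level in them needs 4 such cytosines. Satellite windows, 10 kb long, are those where 50% or more of the cytosines recur 178 bp away with the same trinucleotide and strand. They made up 1109 of 1216 windows in a span of 12.16 Mb, and 8 such windows on chromosome 4 outside the span count with their surroundings. Bins were tested as the report describes, within each context over all bins, and called bins of one direction at most 100 bp apart were merged. Named regions are, per context, the 4 merged regions with the most gained bins outside satellite windows, ties settled by the larger difference, and the 2 with the most lower bins in the arms. Bin calling was tested only on simulated data with independent calls and planted shifts above the thresholds. Those data held no PCR copies and no differences between plants. Genes and promoters are not analysed here. Python 3.11.15, NumPy 2.4.6, pandas 2.3.3, numba 0.67.0, SciPy 1.17.1 and matplotlib 3.10.9 were used. The alternatives tried were minimums of 1 and 10 calls, equal weighting of cytosines, an upper limit on coverage, cytosines covered in all 4 libraries, other region limits, and other bin sizes and thresholds.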

Additional observations from a re-analysis of the deposited data

How the results depend on the processing

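No nuclear or regional level difference, and none of the 18 named regions under 54 alternatives, changed sign. The named regions had been picked for their many called bins, so a change of sign there was unlikely. Counts of bins and shares of kept bins have no sign. Values by chromosome, trinucleotide, distance step and WT class were not rerun. The order of arms and pericentromere in mutant CG changed when cytosines were weighted equally. No paired analysis was possible because each genotype has 1 library, and for the same reason no replicate could be left out. The promoter windows planned for gene names, with their alternatives, were not run. For minimums of 1 and 10 calls, cytosines weighted equally, no cytosines over 3 times the median, and cytosines covered in all 4 libraries, in that order, the nuclear difference was -24.8, -25.1, -17.9, -15.2 and -26.1 points in CG, -12.2, -12.6, -7.16, -6.56 and -13.3 points in CHG, and -4.00, -4.18, -2.38, -2.45 and -4.48 points in CHH. The kept share was 32.3%, 32.2%, 40.8%, 47.4% and 31.1% in CG, 17.1%, 17.4%, 25.8%, 22.5% and 17.1% in CHG, and 19.7%, 18.1%, 32.5%, 26.9% and 17.4% in CHH. The 300 bp bins gave 565 higher and 63043 lower bins in CG, 361 and 45925 in CHG, and 908 and 30684 in CHH, among fewer and wider bins. At least 6 cytosines per bin gave 1299 higher CG and 578 higher CHG bins. Without cytosines over 3 times the median, 67888 CG and 42893 CHG bins were lower. Higher CHH bins numbered 1135 with a minimum of 10 calls and 1519 at an adjusted p under 0.0001. WT-methylated bins that kept at least 50% of their level made up 41.6% in CG, 17.7% in CHG and 20.1% in CHH without cytosines over 3 times the median, and 11.9% in CHG and 13.4% in CHH with a minimum of 10 calls. Where no construction is named, the cause was not tested. The alternative that leaves out bins of unequal depth was chosen after seeing the data and moved no count by over 1.5 times. Depth limits satellite arrays most, where 23.7% of cytosines could be used, and single bins of few calls in ccr4a ccr4b.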

Other observations

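The mitochondrial reference, which lies outside the nuclear comparison, read as methylated in WT and hardly so in the quadruple mutant. The CG level of its calls was 0.248% in ccr4a ccr4b ddm1 rdr2, 0.299% in ddm1 rdr2, 11.4% in ccr4a ccr4b and 10.7% in WT. CHG was 0.173% in ccr4a ccr4b ddm1 rdr2, 0.225% in ddm1 rdr2, 5.59% in ccr4a ccr4b and 4.90% in WT, and CHH was 0.108%, 0.168%, 1.07% and 1.32% in that order. The chloroplast, by contrast, stayed at 0.0881% CG in ccr4a ccr4b ddm1 rdr2, 0.0975% in ddm1 rdr2, 0.108% in ccr4a ccr4b and 0.0861% in WT. Calls of mitochondrial origin and of nuclear copies of mitochondrial sequence cannot be told apart in these counts.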
